A study of Mus musculus with 6 samples.

Results

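HMGN1 and HMGN2 are small nuclear proteins that attach to the nucleosome core and compete there with linker histone H1. They recognize the nucleosome itself and not a base motif. To see where chromatin was listed as accessible only when these proteins were present, 2169 sites on chromosomes 1 to 19 were examined that had a peak in every library of wild type (WT) preadipocytes and no peak in any library of double knockout (DKO) preadipocytes. They were 0.825% of the 262759 sites obtained by merging the peak intervals of all libraries, and are called WT-only sites here. A WT-only site needed a −log10 q above 2 in all 3 WT lists and no line in any of the 3 DKO lists. The sites were therefore chosen by the peak calls themselves, and neither their presence in WT nor their absence from the DKO lists is a finding. Absence means that no summit at the site entered the list, not that the site was closed.

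The preadipocytes came from inguinal white fat of WT mice and of mice with deletions in both Hmgn1 and Hmgn2 (Hmgn1-/- and Hmgn2-/-), were grown on collagen and were collected at day 0, before adipogenic differentiation was induced. C57BL/6 is the labelled strain of either genotype. The paper's reporting summary lists the DKO stock under a B6.Cg (congenic) name and the controls as C57BL/6. The methods give an age of 8 to 12 weeks for the mice used for such cultures. Males were used in most or all experiments, as the sources differ on this. Each genotype had 3 libraries made by ATAC-seq, in which the transposase Tn5 cuts accessible DNA. The sources do not say whether the 3 cultures of a genotype came from separate animals, so the p-values given here measure only the spread between these cultures. Promoters of all 10 preadipocyte markers examined, among them Pdgfra and Pdgfrb, which encode receptors of adipose progenitors, had a peak in all 6 lists. Of the mature adipocyte markers, Plin1 and Cidec had no promoter peak in any list and Adipoq had a peak in 1. Promoter peaks of Csf1r, Pecam1 and Tek, used as leukocyte or endothelial markers, were also present in all 6 lists, and the Cdh5 promoter was listed in the 3 DKO lists and in no WT list.

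Every list ended near the same number of lines (299433 to 299620), because the authors kept at most 300000 peaks. The lists thus ended at different −log10 p values, at 4.33, 3.63 and 5.63 for WT and at 4.10, 4.17 and 3.54 for DKO (replicates 1 to 3 in each case). A site could enter the lists of WT replicate 3 only with a smaller p than was needed elsewhere. Depth cannot be read from the number of lines, and read totals were not analysed here.

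Accessible sites of mesenchymal cells often carry the motif of AP-1, the dimer of FOS and JUN family proteins. C/EBP proteins are early activators of adipogenesis, TEAD proteins act in the Hippo pathway, SP and KLF proteins bind GC-rich promoter boxes, and CTCF organizes chromatin loops. The following stretches show what WT-only sites look like. Each is the 151 bp centred on the highest WT summit, read from the plus strand of GRCm38 (mm10), with capitals marking a match to the letters TGACTCA or TGAGTCA (AP-1), TTGCNNAA (C/EBP) or GGAATG (TEAD) on either strand. The first pair is from the targeted gene Hmgn2, the next pair from sites among the 10 highest that have no match, the next pair from sites among the 10 highest with an AP-1 or C/EBP match, and the last pair from introns of Pparg and Ebf2.

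Hmgn2, chr4:133968167-133968317: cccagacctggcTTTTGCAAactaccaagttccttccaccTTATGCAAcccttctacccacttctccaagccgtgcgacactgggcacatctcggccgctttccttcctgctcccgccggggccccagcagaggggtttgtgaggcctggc
Hmgn2, chr4:133967153-133967303: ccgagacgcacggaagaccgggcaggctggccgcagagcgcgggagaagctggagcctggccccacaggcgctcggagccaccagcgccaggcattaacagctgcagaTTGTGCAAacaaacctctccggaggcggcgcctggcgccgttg
Psg19 side, chr7:18803536-18803686: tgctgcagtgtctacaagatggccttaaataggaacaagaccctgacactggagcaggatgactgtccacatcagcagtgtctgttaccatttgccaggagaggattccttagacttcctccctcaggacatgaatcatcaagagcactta
Runx1 side, chr16:93082334-93082484: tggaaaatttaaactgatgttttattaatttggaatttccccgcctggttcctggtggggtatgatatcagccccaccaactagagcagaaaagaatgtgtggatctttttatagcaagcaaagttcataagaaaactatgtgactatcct
Pcdh15 intron, chr10:74098538-74098688: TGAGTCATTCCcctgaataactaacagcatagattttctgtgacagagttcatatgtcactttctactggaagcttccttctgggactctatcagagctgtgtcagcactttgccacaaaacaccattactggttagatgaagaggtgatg
Car10 side, chr11:92539780-92539930: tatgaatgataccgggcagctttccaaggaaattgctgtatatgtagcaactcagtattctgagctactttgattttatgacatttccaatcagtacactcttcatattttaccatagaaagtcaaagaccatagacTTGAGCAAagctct
Pparg intron, chr6:115365086-115365236: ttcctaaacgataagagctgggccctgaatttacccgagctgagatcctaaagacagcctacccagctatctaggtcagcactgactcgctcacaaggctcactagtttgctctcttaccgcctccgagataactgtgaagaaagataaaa
Ebf2 intron, chr14:67297654-67297804: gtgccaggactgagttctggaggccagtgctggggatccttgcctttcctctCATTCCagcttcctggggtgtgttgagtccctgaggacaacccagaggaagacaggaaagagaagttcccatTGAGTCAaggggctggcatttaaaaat

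A match is a description of the letters and not a bound factor. Within 100 bp on either side of the summit, a window that holds these stretches, the AP-1 letters were found in 26.5%, the C/EBP letters in 12.2% and the TEAD letters in 16.8% of all sites listed in all 6 libraries. In the Pcdh15 stretch the AP-1 and TEAD matches overlap.

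The height of the WT-only sites was described first, as fold enrichment, the ratio of the summit's pileup of Tn5 cuts to the local background that the authors' peak caller wrote. The median over the WT-only sites was 4.0 in WT replicate 1 (lowest 1.85, highest 19), 3.61 in WT replicate 2 (1.85 to 15.1) and 4.4 in WT replicate 3 (1.95 to 20.3). For comparison, 97204 sites had a line in every list, with or without the limit on q. In these all-six sites the medians were 7.79, 6.66 and 9.17 in the same libraries. Only 28, 33 and 33 of the WT-only sites exceeded the all-six median of WT replicates 1, 2 and 3. Most WT-only sites were thus in the low range of each WT list, with a small upper tail.

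**Figure D1:**
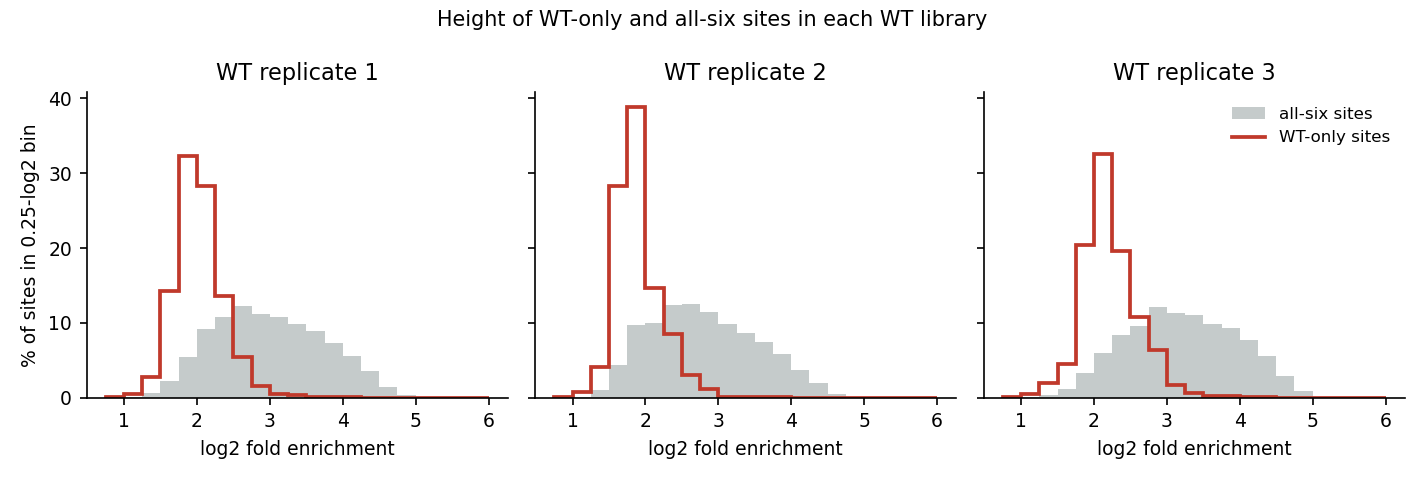
Distribution of log2 fold enrichment in each WT library, as the percentage of WT-only sites (red line) and of all-six sites (grey) in bins of 0.25 log2 units. The WT-only sites peak near a log2 value of 2, below the bulk of the all-six sites, in all 3 WT libraries.

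The sites were narrow. Their median width was 245 bp (73 to 903 bp), against 509 bp for all-six sites, and together they covered 0.581 Mb. In 1327 of the 2169 sites each WT list had a single line. The lowest of the 3 WT −log10 q values was 2 at the weakest site and 3.08 at the median site. Another 57 sites had peaks in all 3 WT lists and in no DKO list but fell at or below the limit on q, the nearest at 1.99. Sites listed in all 3 WT lists and in 1 DKO list, which the rule just leaves out, numbered 4904. Their DKO peak had a median fold enrichment of 3.6, and their WT median of 4.19 was close to the 4.05 of WT-only sites.

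Being listed in no DKO library went with low height. Of the 114387 sites with a −log10 q above 2 in all 3 WT lists, 96856 (84.7%) were in all 3 DKO lists, 10458 (9.14%) in 2, 4904 (4.29%) in 1 and 2169 (1.9%) in none. Among sites with a WT fold enrichment of 3 to 4 (geometric mean of the 3 libraries), 8.41% were in no DKO list. That share was 4.62% at 4 to 5, 1.27% at 5 to 6, 0.307% at 6 to 8 and 0.0427% (10 of 23445 sites) at 8 to 12. Of 22903 sites at 12 or more, 4 were in no DKO list, or 0.0175% (95% exact binomial interval, 0.00476 to 0.0447). The mirrored rule, with peaks in all 3 DKO lists and in no WT list, gave 1739 DKO-only sites. Their share also fell with height above the range of 3 to 4, but the courses differed. The DKO-only share was 8.02% at 2 to 3, above the WT-only share of 6.91% there, 2.39% at 4 to 5 and 0.54% at 5 to 6, both below it, and 0.0286% at 12 or more.

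**Figure D2:**
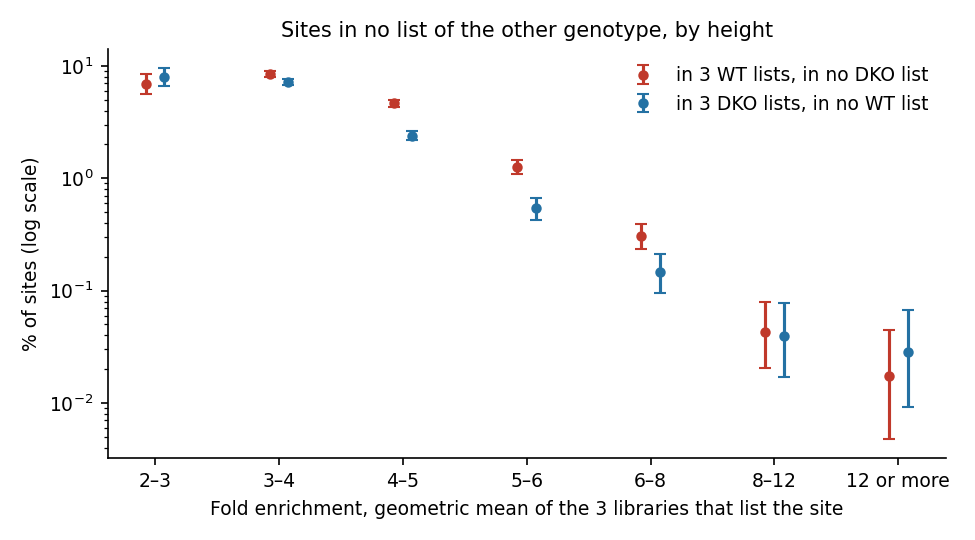
Percentage of sites (log scale) listed in all 3 libraries of a genotype and absent from every list of the other, by fold enrichment in the libraries that list them. Points are WT-only (red) and DKO-only (blue) shares with 95% exact binomial intervals, which cover counting error only, and they fall from 8.41% and 7.15% at 3 to 4 to 0.0427% and 0.0395% at 8 to 12.

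How far the WT-only sites stood above the ends of the DKO lists was also described. The highest end of a DKO list was a −log10 p of 4.17, which every line of WT replicates 1 and 3 exceeded because those lists ended above it. All 3 WT values were above 2 times 4.17 in 130 sites (5.99%), above 3 times in 34 and above 5 times in 9. WT-only sites outnumbered DKO-only sites 1.25 to 1. The ratio turned to 0.88 (3774 against 4288 sites) when DKO replicate 3, whose list had the lowest end, was left out, and it lay between 1.12 and 1.71 when each of the other 5 libraries was left out. With a −log10 q above 5 there were 277 WT-only and 146 DKO-only sites. With no limit on q there were 2226 and 2075, a ratio of 1.07. The limit of 2 bore unequally on the lists. It was exceeded by 90.3% of the lines of DKO replicate 3, 97.5% of those of WT replicate 2 and 100% of those of each other library.

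The 10 highest sites, ranked by their lowest WT fold enrichment, lay mostly away from promoters. The summits of 8 were over 1 kb from the transcription start site (TSS) of any coding gene, and the exceptions were in Tlr6 and Hmgn2. The highest lay between genes on chromosome 7 at 18803340 to 18804116, with fold enrichments of 19, 15.1 and 19.5 in WT replicates 1 to 3. Its nearest coding TSS, 5101 bp away, was that of Psg19, a pregnancy-specific glycoprotein gene. The nearest all-six site, 25198 bp away, had 6.42, 3.13 and 5.58 in WT and 5.59, 5.39 and 4.59 in DKO, so the values of the genotypes overlapped there.

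An intronic site of C530008M17Rik (chromosome 5, 76837027 to 76837334) had fold enrichments of 15.2, 11.7 and 20.3, and 60.7% of the 100 bp on either side of its summit was repeat-masked. The site on chromosome 1 at 16007892 to 16008199, with 14.0, 11.1 and 17.0, lay 45238 bp from the nearest TSS. Tlr6, which encodes a Toll-like receptor that recognizes bacterial lipopeptides, had 2 WT-only sites near its TSS. The first (chromosome 5, 64959988 to 64960221), with its summit 27 bp from the TSS, had 11.8, 12.8 and 15.4. The second (64959451 to 64959904) had 3.99, 5.32 and 4.85. The nearest all-six site, 9086 bp from the first, had 3.28, 3.63 and 3.18 in WT and 4.45, 3.89 and 3.30 in DKO.

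On chromosome 16 at 93082261 to 93082806 a site with 11, 10.3 and 13.9 lay 256260 bp from the TSS of Runx1, a transcription factor of blood formation. The intergenic site near Gm7030 (chromosome 17, 36131863 to 36132393) had 9.69, 10.8 and 13.6, and a site 72642 bp from the TSS of Sfmbt2, a Polycomb group gene (chromosome 2, 10297624 to 10298176), had 10.6, 9.01 and 13.0. The remaining sites of the 10 were the larger Hmgn2 site, the Pcdh15 site and the Car10 site. Pcdh15 encodes a protocadherin of hair cells, and its intronic site (chromosome 10, 74098376 to 74098714) had 8.76, 7.4 and 12.3. The site at the distant Car10 (chromosome 11, 92539548 to 92540202) had 7.3, 8.25 and 10.9 and the nearest coding TSS was 558549 bp away. At all 10 sites WT replicate 3 had the highest of the 3 values.

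The targeted genes were examined next. Hmgn2 (chromosome 4, 133964738 to 133968650, minus strand) held 2 WT-only sites and no all-six site. The site at 133967603 to 133968415 had fold enrichments of 7.89, 7.53 and 9.45, and that at 133967140 to 133967359 had 7.28, 5.79 and 7.39. Their summits lay 241 and 213 bp from an annotated TSS, and their GC contents were 65.7% and 67.2%. The methods state that the deleted genomic sequences are missing from DKO cells, but the extent of the deletion is not given in the sources used here, so missing DNA and closed chromatin cannot be told apart at these sites. Hmgn1 (chromosome 16, 96120618 to 96127729, minus strand) held no WT-only site and 1 all-six site. Within 5 Mb of Hmgn2, leaving out the gene and 1 kb around it, there were 7 WT-only and 21 DKO-only sites. These were 0.858 and 2.57 per 100 all-six sites. Around Hmgn1, counted in the same way, there were 10 and 8, or 2.2 and 1.76 per 100. Over chromosomes 1 to 19 the figures were 2.23 and 1.79 per 100.

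To place the sites in the genome, the highest WT summit of each was compared with the GENCODE annotation. All-six sites were reweighted to the height distribution of the WT-only sites, in bins of 0.25 log2 units of WT fold enrichment, and sites were taken as a description with no test, since they are not replicates. Of the WT-only sites 50.1% (95% exact binomial interval, 48.0 to 52.2) were intergenic, against 32.6% of all-six sites of the same height. Introns held 45.2% against 58.6%, untranslated regions 1.66% against 4.23%, coding exons 1.38% against 2.27% and non-coding exons 1.66% against 2.32%. The median distance to a TSS was 18902 bp against 8504 bp, and 24.7% of WT-only sites lay over 50 kb from any TSS against 10.5%. DKO-only sites were also farther from a TSS, with a median of 11829 bp against 9914 bp. Of these sites, 34.0% were intergenic, against 35.5% of all-six sites of the same DKO height, and 10.2% lay over 50 kb from a TSS against 12.5%.

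Sites within 1 kb of a TSS made up 7.88% of WT-only sites (171 sites, interval 6.78 to 9.10) and 19.1% of all-six sites of the same height, a difference of −11.2 percentage points. DKO-only sites were also fewer there, at 12% (10.5 to 13.6) against 16.6%. The difference was −5.53 points when height was taken as −log10 p and −3.62 points when all-six sites were matched on both height and GC. For intergenic sites the difference of 17.5 points was 14.6 points after matching on both and 9.95 points against all-six sites of any height. The share near a TSS was not even over heights. It was 29.8% in the 94 sites with a WT fold enrichment under 3, 9.24% in the 898 sites at 3 to 4 and 4.82% in the 1099 sites at 4 to 6. In the 78 sites at 6 or more, which include both Hmgn2 sites, it was 8.97%.

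**Figure D3:**
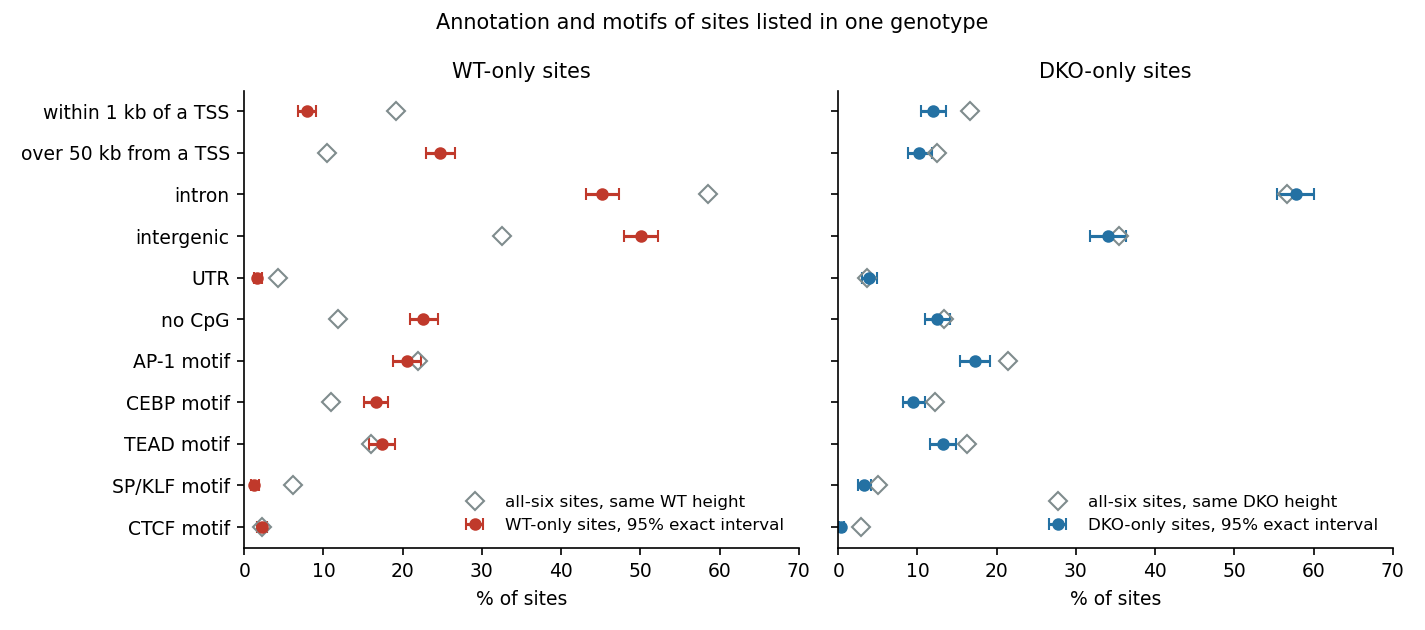
Percentage of WT-only sites (left, red) and DKO-only sites (right, blue) with each annotation or motif, with 95% exact binomial intervals, beside all-six sites reweighted to the same height (grey diamonds). WT-only sites lie right of the diamonds for intergenic position, distance over 50 kb, lack of CpG and the C/EBP motif, and left of them for TSS proximity, introns and the SP/KLF motif.

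The base composition of the sites differed from that of all-six sites. Median GC within 100 bp of the summit was 43.8% (95% order-statistic interval, 43.3 to 43.8) in WT-only sites and 48.8% in all-six sites of the same height. In DKO-only sites it was 48.8%, against 47.8% in their height-matched all-six sites. Of the WT-only sites 28.2% had a GC under 40%, against 8.28% of DKO-only and 10.7% of all-six sites. At a GC of 60% or more the shares were 1.98%, 6.1% and 11.5%. The higher WT-only sites were not richer in GC, with a median of 47.8% under a fold enrichment of 3, 44.3% at 3 to 4, 42.8% at 4 to 6 and 42.3% at 6 or more. No CpG was found in 22.6% of WT-only sites against 11.8% of all-six sites of the same height. Repeat-masked bases made up 13.1% against 10.7%.

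Because GC moved with the selection, it was asked whether GC also moved with genotype at sites the rule did not use. Over the 97204 all-six sites, the median log2 fold enrichment of the 30197 sites with a GC under 45% was compared with that of the rest in each library. The difference was −0.0753, −0.0835 and −0.0642 in the WT libraries (replicates 1 to 3) and −0.1846, −0.1904 and −0.2019 in the DKO libraries. The genotypes did not overlap, and the mean difference between them was −0.118 (two-sided exact permutation p = 0.1, the smallest that 3 against 3 libraries can give). After quantile normalization it was −0.1212 with the same p. Sites of low GC were thus lower in all 3 DKO libraries, relative to the other sites of the same library. Among sites under 40% GC the median log2 difference between DKO and WT was −0.1036 within 50 kb of a WT-only site and −0.0974 elsewhere. The part of GC in the selection of the WT-only sites was not tested, and the split at 45% was chosen after the GC of these sites had been seen.

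**Figure D4:**
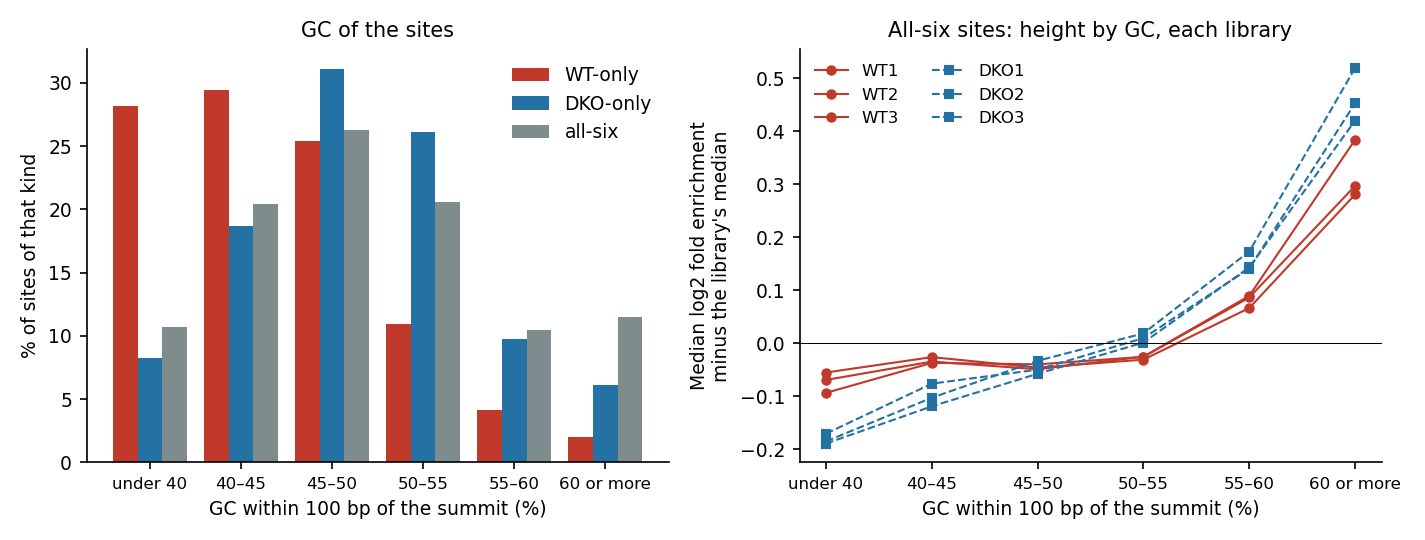
Left, percentage of WT-only (red), DKO-only (blue) and all-six (grey) sites by GC content within 100 bp of the summit. Right, median log2 fold enrichment of all-six sites in each GC range, relative to the median of the same library, for WT libraries (red, solid) and DKO libraries (blue, dashed), which lie below the WT libraries under 45% GC and above them from 50% GC.

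Motifs were then counted within 100 bp of the summits. The AP-1 letters were present in 20.5% of WT-only sites (445 sites, interval 18.8 to 22.3) and in 21.9% of all-six sites of the same height, whose value lay inside the interval. After matching on height and GC together the shares were 20.6% and 24.5%, and without any matching 20.5% and 26.5%, so the WT-only share was the lower one in those comparisons. DKO-only sites had the letters in 17.2% (15.4 to 19.1) against 21.4%. Within the WT-only sites the share increased with height, from 13.8% under a fold enrichment of 3 to 16.7%, 23.7% and 26.9% in the next ranges. The TEAD letters were found in 17.4% (15.8 to 19) against 16.0%, and in 13.2% of DKO-only sites against 16.2%. CTCF motifs were found in 48 sites (2.21%, 1.64 to 2.92), the same share as in all-six sites of the same height (2.21%) and below the 4.15% of all-six sites of any height, while only 0.288% of DKO-only sites had the motif against 2.92% of their matched all-six sites. With a −log10 q above 5 the shares were 4.69% of 277 WT-only sites and 3.44%. None of the 78 WT-only sites at a fold enrichment of 6 or more had a CTCF motif, which allows a share of up to 3.85%.

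The C/EBP letters TTGCNNAA were present in 360 WT-only sites, or 16.6% (15.1 to 18.2), against 10.9% of all-six sites of the same height. The DKO-only share was 9.49%, against 12.2%. The letters favour AT-rich sequence, and after matching all-six sites on height and GC together the WT-only share was 16.6% against 13.4%. The difference narrowed from 5.71 to 3.14 percentage points. Both Hmgn2 stretches and the Car10 stretch printed above are among these sites. The SP/KLF letters GGGCGGG were found in 1.29% of WT-only sites (28 sites) against 6.16%, and in 3.22% of DKO-only sites against 4.99%.

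Genes with WT-only sites were counted next. Of the 20780 coding genes, 744 held 1 site in the gene body, 78 held 2, 12 held 3 and 7 held 4. Those with 4 were all long genes, from 157 kb (Rbm47) to 2271 kb (Ptprd). Rbm47 encodes an RNA-binding protein, and its 4 sites, with lowest WT fold enrichments of 3.28 to 5.54, formed the single run of 4 WT-only sites with gaps of up to 50 kb, beside 16 all-six and 0 DKO-only sites in the gene. Epha3, an ephrin receptor gene of 321 kb, held 4 WT-only, 0 DKO-only and 6 all-six sites. Rora, which encodes a nuclear receptor, held 4, 0 and 63 in the same order, and the receptor phosphatase genes Ptprm and Ptprd held 4, 3 and 36, and 4, 1 and 10. Adamtsl1 and Gm37240 held 4 WT-only sites each among 45 and 72 all-six sites.

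Lists of genes that act in adipose tissue were then searched for WT-only sites in the gene body or within 10 kb. Of all coding genes 5.88% had such a site, and long genes have more room for it. Of 17 adipogenic factors 4 had a site, namely Pparg, Cebpd, Nr3c1 and Nfib. Pparg encodes the nuclear receptor that drives adipogenesis, and its intronic site (chromosome 6, 115365100 to 115365240) had fold enrichments of 5.93, 3.13 and 5.38. The nearest all-six site, 3687 bp away, had 4.92, 3.98 and 4.11 in WT and 5.03, 4.53 and 4.59 in DKO. Cebpd, an early C/EBP gene of adipogenesis, had a weak site in an untranslated region with 2.89, 3.71 and 2.59, and an all-six site 997 bp away with 3.6, 3.56 and 3.59 in WT and 3.77, 3.2 and 3.86 in DKO. At both genes the neighbouring peak had overlapping values in WT and DKO.

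The site in Nr3c1, the glucocorticoid receptor gene, had 3.80, 3.13 and 3.82, and that in Nfib, a nuclear factor I gene, had 3.36, 2.85 and 3.65. An all-six site 875 bp from the Nfib site had 4.11, 3.83 and 3.73 in WT and 5.11, 4.87 and 5.46 in DKO. Those values did not overlap and were higher in DKO, next to a site listed only in WT.

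Of 18 thermogenic and beige genes 2 had a site. In Ebf2, a transcription factor gene of brown and beige progenitors, the intronic site (chromosome 14, 67297555 to 67297818) had 2.78, 2.63 and 4.17. A higher all-six site 1506 bp away had 15.3, 11.8 and 15.3 in WT and 12.6, 9.14 and 12 in DKO. In Esrrg, which encodes an estrogen-related receptor of oxidative metabolism, the site had 3.21, 3.13 and 4.40. Neither Ucp1, the uncoupling protein gene, nor Ppargc1a had a WT-only site. Of 10 AP-1 genes only Fos had a site, in its untranslated region, with the low values of 2.01, 2.13 and 1.99. Of 13 progenitor surface genes only Pdgfra had a site, 6773 bp from its TSS, with 3.92, 4.25 and 4.39, and of 12 matrix genes none did. Of the gene families searched, a site was found at 3 of 10 non-clustered protocadherin genes (Pcdh9, Pcdh15 and Pcdh20), 2 of 13 Psg, 1 of 9 Tlr, 3 of 60 Serpin, 14 of 385 Zfp, 1 of 34 H2-, 8 of 1127 Olfr and 2 of 328 Vmn genes, and at none of the 26 Klr, 15 Ceacam, 14 Slco and 10 Gbp genes.

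Sites near coding promoters were mostly weak. Beside Hmgn2 and Tlr6, the highest within 1 kb of a coding TSS was at Coq2, a coenzyme Q synthesis gene (chromosome 5, 100673711 to 100674057), with 7.72, 6.03 and 6.76. An all-six site 484 bp away had 3.93, 5.08 and 6.28 in WT and 6.91, 5.75 and 5.84 in DKO. The site at Cdh17, an intestinal cadherin gene, had 4.67, 4.55 and 7.63. That at Csf2, the gene of a myeloid growth factor, had 5.90, 4.14 and 6.46. The sites at Prex1 (4.11, 4.86 and 4.11), Grin3a (4.09, 4.27 and 5.58) and Pcdhgb7 (4.09, 5.41 and 5.87) reached between 4.09 and 5.87.

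WT-only sites were found on all 19 autosomes. Their number per 100 all-six sites was highest on chromosome 16 (3.04, with 108 sites), followed by chromosomes 3 (2.93), 5 (2.83), 18 (2.81) and 14 (2.74). It was lowest on chromosome 11 (1.42, with 95 sites) and chromosome 19 (1.65). The ratio of WT-only to DKO-only sites ranged from 2.2 on chromosome 16 (108 against 49) to 0.736 on chromosome 11 (95 against 129), and chromosome 17 was also below 1 (0.771). The median GC of all-six sites was 47.8% on chromosome 16, 46.8% on chromosome 3 and 50.7% on chromosome 11, but chromosome 5 had 49.3%, and chromosomes 1 and 13, with 1.94 and 1.86 WT-only sites per 100, had 47.3%. On every one of the 19 chromosomes the median GC of WT-only sites was below that of all-six sites.

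**Figure D5:**
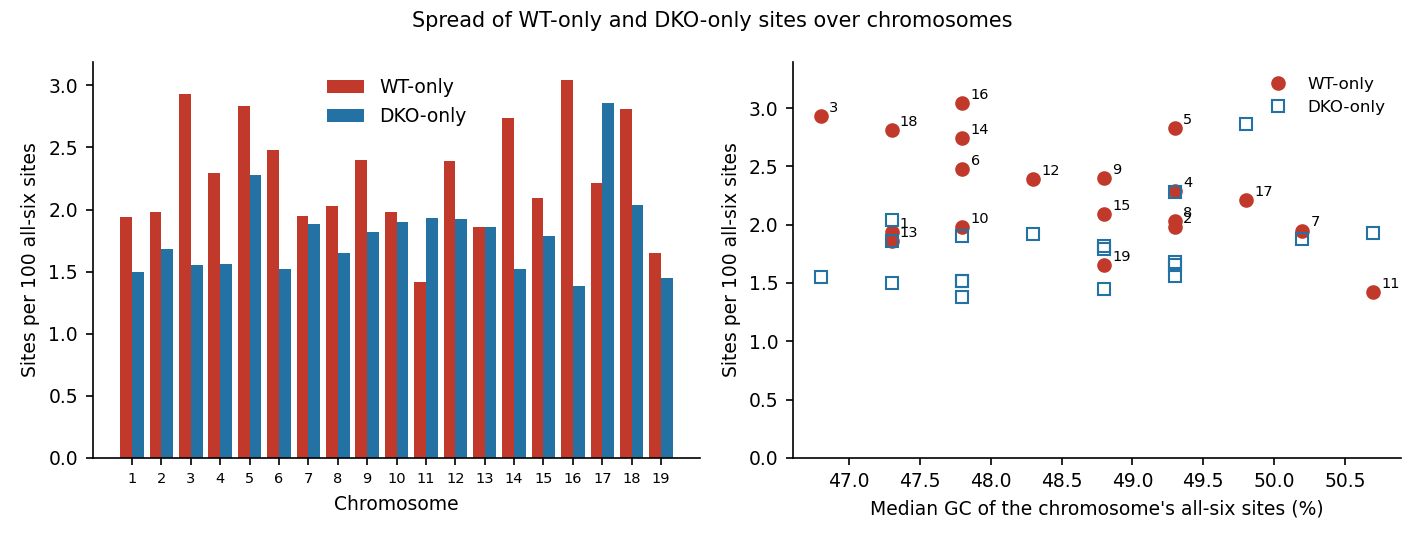
WT-only (red) and DKO-only (blue) sites per 100 all-six sites on each autosome (left) and against the median GC of the chromosome's all-six sites (right, chromosome numbers beside the WT-only points). Chromosome 16 has 3.04 WT-only and 1.38 DKO-only sites per 100, and chromosome 11 has 1.42 and 1.93.

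Most sites were alone. The median distance to the next WT-only site was 299075 bp, while that to the nearest all-six site was 7680 bp. Another WT-only site lay within 50 kb of 326 sites, or 15% (13.6 to 16.6), and a WT-only site lay within 50 kb of 10.4% of all-six sites (10.6% at the same height). A DKO-only site lay within 50 kb of 8.16% of WT-only sites, against 12.1% of all-six sites (14.0% at the same height). These are descriptions with no test. Leaving out a library, which raises the number of WT-only sites, gave 21.5% against 21.1% without WT replicate 3 and 23.2% against 22.3% without WT replicate 2 for the first comparison, so that the gap nearly closed, and 20.8% to 24.2% against 18% to 19.6% without each of the others. With gaps of up to 50 kb the sites formed 1843 singles, 140 pairs, 14 runs of 3 and 1 run of 4.

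The fullest stretches of 1 Mb held 8 WT-only sites. On chromosome 14, from 53000001 to 54000000, these stood beside only 5 all-six sites and no DKO-only site, with 7 of the 8 between genes and Olfr1507 and Dad1 as the nearest coding genes. On chromosome 16, from 93000001 to 94000000, they stood beside 65 all-six sites and 1 DKO-only site, and all 8 were intergenic in the neighbourhood of Runx1, Setd4, Gm5678 and Cbr3. A stretch on chromosome 15 (62000001 to 63000000) held 7, with Myc as the nearest coding gene, and stretches on chromosomes 14, 16 and 5 held 6 each. The last, from 91000001 to 92000000, lay near Epgn, Areg and Btc, which encode ligands of the EGF receptor.

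To ask whether the surroundings of WT-only sites also differed between genotypes, all-six sites were compared in a fit that the selection rule did not use. Over all 97204 all-six sites limma called 624 lower (0.642%) and 285 higher (0.293%) in DKO at a Benjamini-Hochberg adjusted p under 0.05. Of the 10133 all-six sites within 50 kb of a WT-only site, 102 were lower (1.01%) and 38 were higher (0.375%). The lower share was 1.36% within 10 kb, 0.905% at 10 to 50 kb, 0.656% at 50 to 200 kb and 0.58% beyond, and the higher share was 0.613%, 0.306%, 0.23% and 0.302%. The lower share was 0.357%, 0.248%, 0.267% and 0.86% at the same distances from DKO-only sites, where the higher share was 0.515%, 0.486%, 0.359% and 0.23%. Under 40% GC the lower share was 3.26% near WT-only sites and 1.81% elsewhere, at 40 to 45% it was 1.31% and 1.11%, at 45 to 50% it was 0.8% and 0.474%, at 50 to 55% it was 0.351% and 0.211%, and at 55% or more it was 0.297% and 0.072%. The higher share near and elsewhere was 0.546% and 0.276% at 45 to 50% GC, 0.602% and 0.35% at 50 to 55% and 0.446% and 0.422% at 55% or more, while under 40% it was 0.0858% and 0.0976% and at 40 to 45% it was 0.0453% and 0.17%. The higher shares near WT-only sites under 45% GC rest on 1 call in each of these ranges.

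The neighbourhood was also compared as a whole. The median log2 difference between DKO and WT was 0.0168 near WT-only sites and 0.0115 over all all-six sites. The median log2 fold enrichment of near sites relative to the other all-six sites was −0.0310, −0.0112 and −0.0212 in the WT libraries (replicates 1 to 3) and −0.0315, −0.0222 and −0.0282 in the DKO libraries. The values of the genotypes overlapped, and their difference of −0.0062 was within the spread between libraries (two-sided exact permutation p = 0.4, where 3 against 3 libraries cannot go below 0.1). With sites up to 200 kb away counted as near, every DKO value was below every WT value, by −0.0139 on average (exact permutation p = 0.1). Without scaling of the libraries the fit called 136 lower and 14 higher sites, and its median over all all-six sites was then −0.151, so that directions are relative to the scaling. With median centring it called 675 and 519. Leaving out WT replicate 3 reduced the lower sites to 160, of which 34 were near WT-only sites, and leaving out WT replicate 1 reduced them to 265 and 45. Without DKO replicate 3 the fit called 387 lower sites, and without DKO replicate 1 it called 67 near ones. The higher sites fell to between 107 and 159 without any library other than WT replicate 2. With all libraries and in each alternative the share called near WT-only sites was above the share over all sites, for lower and for higher calls. For higher calls, the ratio of the near share to the share over all sites was smallest without WT replicate 2 (0.326% against 0.302%). It was largest without scaling (0.0296% against 0.0144%). The shares themselves were largest with median centring (0.671% against 0.534%).

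Single neighbours changed in either direction. The all-six site with the smallest p near a WT-only site (chromosome 17, 43000245 to 43001233), 15742 bp from the TSS of the death receptor gene Tnfrsf21, had fold enrichments of 20.8, 20.2 and 22.6 in WT and 5.87, 7.65 and 6.55 in DKO. By limma it changed by −1.51 ± 0.14 log2 units (SE, adjusted p = 3.07e-07), and the WT-only site lay 46549 bp away. An intergenic site whose nearest coding gene was Tshz3, a zinc finger gene (chromosome 7, 37136524 to 37137027), had 13.5, 14.5 and 16.1 in WT and 5.03, 5.95 and 2.95 in DKO (log2 change −1.58 ± 0.21, limma adjusted p = 4.57e-05). An intronic site of Galnt9, a glycosyltransferase gene, changed by −1.30 ± 0.18 (limma adjusted p = 7.87e-05), with a WT-only site 49664 bp away. The other 2 of the 5 lower sites were on chromosome 18 near Dsc3, a desmosome gene, with log2 changes of −1.07 and −1.71. In each of the 5 every WT value was above every DKO value, but choosing sites by smallest p favours this. The share of such sites among all all-six sites was not counted.

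Sites higher in DKO were also found near WT-only sites. An all-six site in Gm16485 (chromosome 9, 9048525 to 9048952), 1256 bp from a WT-only site, had 3.95, 4.33 and 5.65 in WT and 13.7, 13.5 and 10.5 in DKO (log2 change 1.60 ± 0.19, limma adjusted p = 1.31e-05). A site 17296 bp from the WT-only site of Coq2 had 3.80, 3.70 and 3.82 in WT and 11.4, 9.53 and 11.8 in DKO (1.66 ± 0.21, limma adjusted p = 2.10e-05). A site in BC023719, 21074 bp from the high WT-only site near Gm7030, had 4.09, 5.41 and 8.22 in WT and 13.3, 11.7 and 12.4 in DKO (1.30 ± 0.19, limma adjusted p = 0.000257). In that neighbourhood, 3 WT-only and 2 DKO-only sites lay between 36132031 and 36186334 on chromosome 17, beside Gm7030, Gm8909 and H2-T3, a gene of the major histocompatibility complex. The remaining sites were near Enpp5 (1.59 ± 0.20) and Polr1d (0.85 ± 0.14). The WT and DKO values of all 5 did not overlap, which the choice by smallest p again favours.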

How the data were processed

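The ATAC-seq peaks of 6 libraries (3 per genotype) were used as deposited. The authors aligned trimmed reads (bcl2fastq 2.17 and cutadapt 1.18 per the labels) to mm10 with Bowtie2 2.3.4.3, removed duplicate and mitochondrial reads, called summits with MACS2 in each library and, per the list names, kept up to 300000 at a p of 0.01 and filtered them by region. The methods give default settings for MACS2, its version is not given in the sources used here, and Tn5 shifting was read from the list names only. The deposited fold enrichment is a ratio of summit pileup to local background, and p and q were deposited as −log10 values. Neither is corrected for depth.

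Intervals that overlapped or touched were merged with bedtools 2.31.1 on chromosomes 1 to 19. The value of a site in a library was its highest fold enrichment. Features came from GENCODE M21 (basic set) and the GRCm38.p6 sequence, within 100 bp of the highest WT summit, and no interval ended beyond a chromosome. GC, repeats and motifs were described without tests. Confidence intervals are 95% and exact. Log2 fold enrichment of all-six sites was quantile-normalized and compared with limma 3.58.1 (lmFit, eBayes with trend, two-sided, Benjamini-Hochberg over 97204 sites) in R 4.3.3. Nothing was imputed. On simulated data the fit recovered 158 of 200 changes of 2 log2 units and 0 of 200 changes of 1 log2 unit. The simulation gave sites their spread at random, without regard to height. With the real data the fit called a change of 0.85 log2 units. The simulation thus does not measure the power of the real fit, and uncalled sites may still differ. Values per library were compared by exact permutation. Other steps used Python 3.11.15.

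The sites, lists and tests were chosen with earlier results of these data known. Named sites were those in Hmgn1 or Hmgn2, the 10 highest by lowest WT fold enrichment, the 10 highest within 1 kb of a coding TSS, the 5 genes and the 5 stretches of 1 Mb with most sites (with ties), gene list members with a site, and the 5 near all-six sites with the smallest p in each direction. Alternatives were other merging gaps, q limits, height measures, distances and scalings, and leaving out each library. The sequence motif of CTCF was searched by its consensus on both strands.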

Additional observations from a re-analysis of the deposited data

Results flagged for a closer look

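Chromosome X was left out of the comparisons, and the same rule found 73 WT-only sites there, against 11 DKO-only and 1720 all-six sites. This signal in data outside the main measurement is a count of 4.24 WT-only and 0.64 DKO-only sites per 100 all-six sites. Chromosomes 1 to 19 together had 2.23 and 1.79, and no autosome had more than 3.04 WT-only sites per 100. On chromosome X the lists had 5501, 5120 and 5999 lines in WT and 4946, 5081 and 4665 in DKO (replicates 1 to 3). Every WT list thus had more lines there than every DKO list. The sources differ on whether male mice were used in all experiments or in most. Each of the 6 lists had between 48 and 61 lines on chromosome Y, where 22 sites were listed in all 6 libraries.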

How the results depend on the processing

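The limits of the lists bound what these counts can show, since a site absent from a list may lie just under its end. Of 176 alternative values for 15 results, 95 kept their size within the spread or within 1.5 times the count. A further 81 moved and 0 were labelled reversed. No reversal was labelled where the main value was smaller than its spread. The CTCF difference was such a value, at 0.00657 points and −1.94 without matching. The neighbourhood difference counted as kept when its p stayed on the same side of 0.05. That p cannot go below 0.1, so the label was fixed unless the sign changed. The count of WT-only sites was 277 with a −log10 q above 5, 537 with only the 50000 best lines of each list, which leaves fewer lines by construction, and 3774 to 4643 when a library was left out, which leaves fewer conditions to meet. The difference in the share near a TSS was −8.93 points with height as the lowest WT value, −7.25 with a −log10 q above 5, −5.66 with merging over gaps of 500 bp, and from −11.6 to −9.63 without a library. It was −5.53 with height as −log10 p and −3.62 with height and GC together, both of which were chosen after seeing the data. The difference in median GC was −5.47 with a −log10 q above 5, −4.48 with height as −log10 p, and from −5.47 to −4.48 without a library. In the limma fit, no scaling gave 136 lower and 14 higher sites (24 and 3 near WT-only sites), eBayes without trend gave 144 and 76 (25 and 10), and median centring gave 519 higher sites (68 near). Without a library the lower sites numbered 160 to 560 and the higher 107 to 294, and near WT-only sites 34 to 86 and 18 to 33. The cause was not tested. The neighbourhood difference lay between −0.0139 and −0.0012, with exact permutation p from 0.1 to 0.7. With the replicate number as a block, limma called 766 lower and 359 higher sites (124 and 47 near WT-only sites), and the neighbourhood difference of −0.0062 had an exact sign-flip p of 0.25, the smallest that 3 pairs allow. Deviations from the group means were not shared by same-numbered libraries (r = 0.00559, −0.0371 and −0.053), and the numbers were taken as names only.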

Other observations

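Some runs of WT-only sites held no all-six site between their ends. On chromosome 14 there were 2 such runs of 3 sites, from 53505639 to 53547545 and from 53639203 to 53665899, with lowest WT fold enrichments of 3.42 to 3.82 and of 3.70 to 4.27. Another run of 3, on chromosome 7 from 18779735 to 18803611, ended at the highest WT-only site near Psg19 and had lowest fold enrichments of 5.12 to 15.1. A run of 3 from 13988996 to 14063357 on chromosome 15 lay nearest to the cadherin gene Cdh6, with 3.13 to 5.12. A run of 3 on chromosome 8, from 103489219 to 103517867, had Cdh5 as its nearest coding gene, the gene whose promoter peak was listed in the 3 DKO lists and in no WT list, and had lowest fold enrichments of 3.42 to 3.70, with 1 all-six site within it.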
